A study of Mus musculus with 73 samples.

Results

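The genes that write H3K9 methylation, the HP1 genes whose proteins read it, and the co-repressor gene Trim28 were followed in mouse embryos by RNA-seq. The set held the methyltransferase genes Suv39h1, Suv39h2, Setdb1, Setdb2, Ehmt1 and Ehmt2, the HP1 genes Cbx1, Cbx3 and Cbx5, and Trim28. They were chosen by name, with earlier results of these data known, and are 10 of the 25220 gene rows of the table. All 10 were present and all 10 passed the filter on low values in each comparison. The embryos were of a hybrid C57BL/6 / C3H background and were grown in KSOM medium. There were 3 libraries of p150DN 8-cell embryos, 2 libraries of EGFP blastocysts and 3 libraries of EGFP 8-cell embryos. p150DN is a dominant-negative form of p150, the largest CAF-1 subunit. CAF-1 (chromatin assembly factor 1) places histones H3 and H4 on newly copied DNA. EGFP embryos were the control. How either construct was introduced, and how many embryos went into a library, is not given in the sources used here. Levels are FPKM, the fragments counted per kilobase of gene after scaling each library to a common total, so they can be set side by side between genes of different length.

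Methylation of H3K9 is a mark of silent chromatin. Suv39h1 and Suv39h2 encode the enzymes that trimethylate H3K9 at pericentromeric repeats, Ehmt1 (GLP) and Ehmt2 (G9a) act as a pair that dimethylates H3K9 in gene-rich chromatin, and Setdb1 acts at retroviral elements. HP1 proteins bind methylated H3K9 through their chromodomain: Cbx5 encodes HP1 alpha, Cbx1 HP1 beta and Cbx3 HP1 gamma. Trim28 (KAP1) is recruited by KRAB zinc finger proteins, brings in Setdb1 and binds HP1, and CAF-1 p150 itself binds HP1.

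The results turn on the HP1 genes, whose transcripts moved in different directions, so 1 promoter window of each is shown. Cbx3 and Cbx5 each have a further listed start, and the window of the start listed first is shown. Each window runs from 250 bases before to 50 bases after a start listed for the gene in the RefSeq promoter table, is read 5′ to 3′ on the strand of the gene, and comes from RefSeq on GRCm38.p6 (mm10). These starts lie inside the outer bounds of the genes given below, and distances to neighbouring genes are counted from those bounds. Capitals mark matches, on either strand, to the GC box (GGGCGG), the CCAAT box (its own letters), the E-box (CACGTG) and the GATA motif (AGATAA). The Cbx1 window is chr11:96788885-96789184 on the plus strand, the Cbx3 window chr6:51470366-51470665 on the plus strand, and the Cbx5 window chr15:103239803-103240102 on the minus strand.
Cbx1: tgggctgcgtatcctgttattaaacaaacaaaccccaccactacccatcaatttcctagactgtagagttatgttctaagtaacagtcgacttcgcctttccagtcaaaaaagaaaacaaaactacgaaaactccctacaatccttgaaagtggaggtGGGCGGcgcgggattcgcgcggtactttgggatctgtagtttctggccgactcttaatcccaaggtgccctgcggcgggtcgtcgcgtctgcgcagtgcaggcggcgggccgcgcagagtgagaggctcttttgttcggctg
Cbx3: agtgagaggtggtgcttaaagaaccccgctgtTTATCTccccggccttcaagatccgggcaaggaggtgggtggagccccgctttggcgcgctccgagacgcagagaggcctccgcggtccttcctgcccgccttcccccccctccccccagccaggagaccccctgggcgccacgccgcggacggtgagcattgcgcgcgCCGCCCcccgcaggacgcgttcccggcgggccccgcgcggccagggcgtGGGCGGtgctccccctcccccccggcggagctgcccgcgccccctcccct
Cbx5: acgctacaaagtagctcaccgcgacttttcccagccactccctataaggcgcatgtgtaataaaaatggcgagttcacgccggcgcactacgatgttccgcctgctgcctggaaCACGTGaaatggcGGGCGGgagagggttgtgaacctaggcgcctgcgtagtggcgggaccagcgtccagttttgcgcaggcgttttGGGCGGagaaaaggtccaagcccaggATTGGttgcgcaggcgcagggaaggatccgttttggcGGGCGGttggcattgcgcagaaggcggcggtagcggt

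The Cbx1 window held 52.7% G and C, 22 CpG and 1 GC box, which began at base -92 from the start. In the Cbx3 window, 75.3% of bases were G or C, with 34 CpG, GC boxes at -49 and 1, and a GATA match at -218. The Cbx5 window held 60.3% G and C, 29 CpG, GC boxes at -123, -50 and 14, an E-box at -136 and a CCAAT match at -24. Over all 32851 RefSeq windows of this length the median was 52.7% G and C and 7 CpG. The 3 HP1 windows shown held more CpG than the median, as did every other window of the 10 genes. Cbx1 lay at the median in G and C. At its further start, Cbx3 had 71.7% G and C, 32 CpG, no GC box and a TEAD match (GGAATG). At the further Cbx5 start there were 54.7% G and C, 8 CpG and 1 GC box. A GC box was found in 35.7% of all windows, a CCAAT box in 37.4%, an E-box in 7.15% and a GATA match in 11.2%. Counting further starts in the table, the 10 genes had 14 windows, of which 12 held a GC box, 4 a CCAAT box, 3 an E-box and 2 a GATA match. None of the 14 held TATAAA, found in 13.6% of all windows, or the AP-1 letters TGANTCA, found in 7.81%. The ETS letters CCGGAAG, the CRE letters TGACGT and the TEAD letters GGAATG were each found in 1 of the 14, against 8.86%, 7.51% and 14.7% of all windows. The letters of different motifs were searched separately and may overlap, and a match describes the letters only.

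Between 16578221 and 22488477 fragments were counted per library, and the values of the 10 genes rested on 265 (Suv39h2) to 17932 (Trim28) fragments. Genes above 0 FPKM numbered 18412, 20465 and 21282 in p150DN replicates 1, 2 and 3, 18991 and 18547 in the blastocysts, and 17310 to 18402 in EGFP 8-cell embryos. Chaf1a, which encodes p150, checked the labels. It stood at 165, 254 and 238 FPKM in p150DN embryos, at 26.5 and 27.2 FPKM in blastocysts and at 27.7, 30.2 and 28.8 FPKM in EGFP 8-cell embryos. Markers of the stages differed in the same libraries: 8 trophectoderm markers summed to 389 to 598 FPKM in p150DN embryos, 1160 to 1230 FPKM in blastocysts and 245 to 270 FPKM in EGFP 8-cell embryos, where Elf5 was at 0. The 5 inner cell mass markers summed to 481 to 676 FPKM in p150DN embryos, 867 to 919 FPKM in blastocysts and 303 to 453 FPKM in EGFP 8-cell embryos. Most of that sum was Pou5f1, whose values overlapped between p150DN and EGFP 8-cell embryos. Against EGFP 8-cell embryos, Pou5f1, Nanog and Sox2 passed as higher in p150DN embryos and in blastocysts. Klf4 passed as higher in p150DN embryos only, and Fgf4 passed in neither comparison. For 5 oocyte markers the sums were 22.7 to 53.4 FPKM in p150DN embryos, 6.17 to 7.0 FPKM in blastocysts and 52.6 to 67.6 FPKM in EGFP 8-cell embryos. These sums overlapped between p150DN and EGFP 8-cell embryos. Against EGFP 8-cell embryos, only Oosp1 passed as lower in p150DN embryos, while all 5 passed as lower in blastocysts. The trophectoderm markers did not move alike. Cdx2, Gata3, Krt8, Krt18 and Eomes passed as higher in p150DN embryos and in blastocysts than in EGFP 8-cell embryos, and Krt18 averaged 168, 427 and 5.98 FPKM in p150DN embryos, blastocysts and EGFP 8-cell embryos. Tead4 passed as lower in both, at 60.3 FPKM in p150DN embryos, 55.3 FPKM in blastocysts and 144 FPKM in EGFP 8-cell embryos, where Tead4 and Tfap2c made up most of the sum. The 4 primitive endoderm markers summed to 102 to 146 FPKM in p150DN embryos, 143 to 151 FPKM in blastocysts and 117 to 177 FPKM in EGFP 8-cell embryos. Most of that sum was Gata6, which did not pass in either comparison with EGFP 8-cell embryos. Gata4 passed as lower, at 7.60 FPKM in p150DN embryos and 0.715 FPKM in blastocysts, against 48.4 FPKM in EGFP 8-cell embryos. Pdgfra passed as higher, at 3.74 FPKM in p150DN embryos and 5.10 FPKM in blastocysts, against 2.00 FPKM in EGFP 8-cell embryos, and Sox17 passed as higher in blastocysts. Cumulus and granulosa, blood and fibroblast markers summed to at most 0.763, 0.649 and 1.41 FPKM in any library. The part of these markers in the results below was not tested.

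Trim28 stood highest of the 10 genes in each group, above the FPKM of 97.6% to 98.1% of the genes at 1 FPKM or more. In p150DN embryos Cbx3 came next without overlap, and then Cbx5, Ehmt2 and Cbx1, whose neighbours in this order overlapped. In blastocysts Cbx1 and Cbx3 shared the next place with overlapping values. In EGFP 8-cell embryos the order was Cbx3, Ehmt2 and Cbx5, each apart from the next, and Cbx1 came ninth, above Suv39h2 only. Suv39h2 was the lowest of the 10 in each group.

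**Figure D1:**
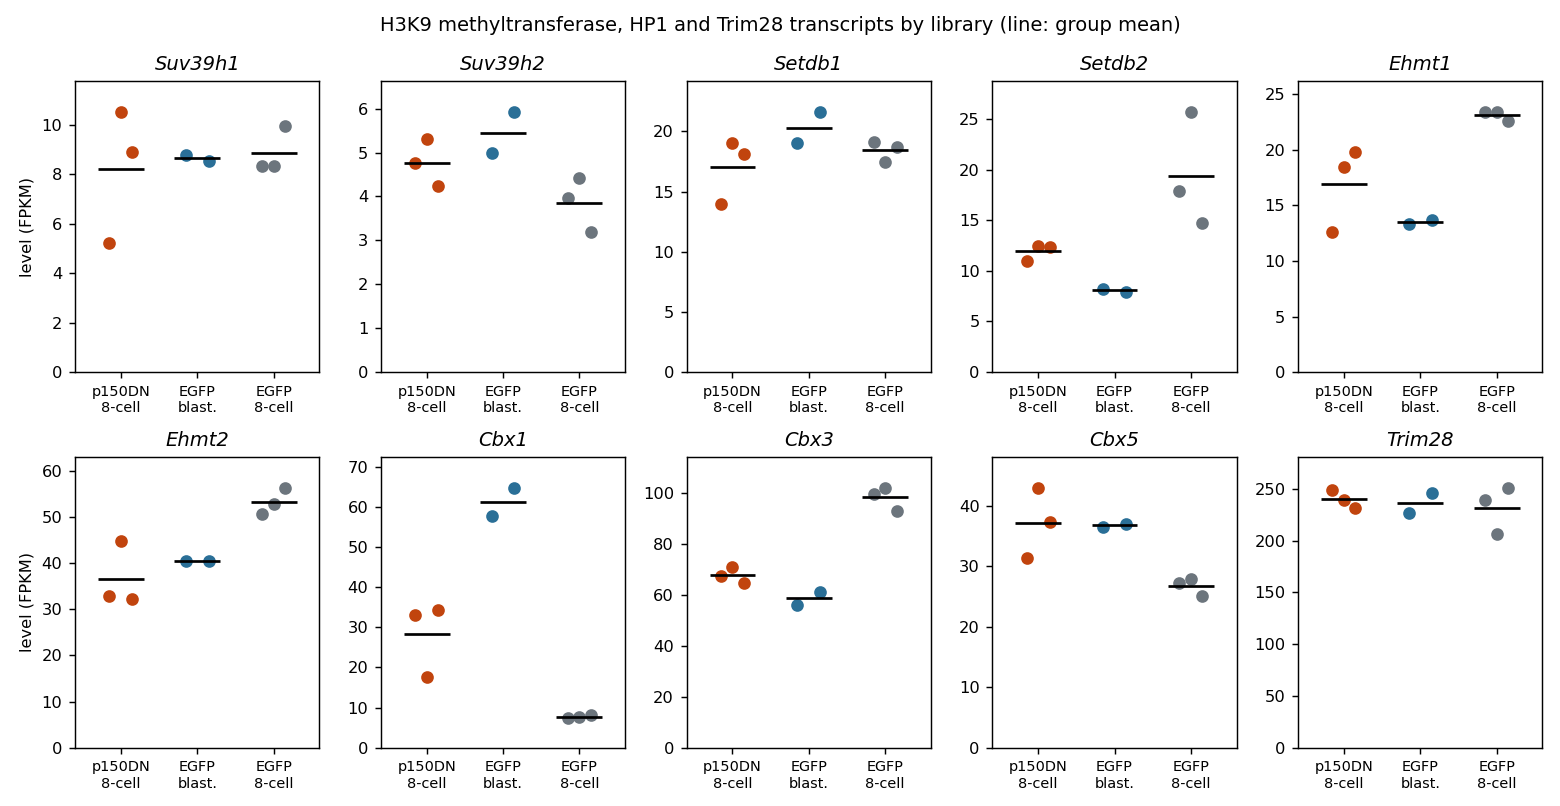
Level (FPKM, vertical axis from 0) of the 10 genes in each library of p150DN 8-cell embryos, EGFP blastocysts and EGFP 8-cell embryos; points are libraries and lines are group means. Cbx1 was at 17.7 to 34.4 FPKM in p150DN embryos, 57.7 and 64.7 FPKM in blastocysts and 7.34 to 8.07 FPKM in EGFP 8-cell embryos, while the 3 groups overlapped for Trim28.

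Of the 10 genes, Cbx1 differed most in p150DN embryos and in blastocysts from EGFP 8-cell embryos. Its transcript, which encodes HP1 beta (chromosome 11, 96788680 to 96808982), was at 33.0, 17.7 and 34.4 FPKM in p150DN replicates 1, 2 and 3, at 57.7 and 64.7 FPKM in blastocysts and at 7.34, 7.61 and 8.07 FPKM in EGFP 8-cell embryos. No group overlapped another, and p150DN replicate 2 lay lowest of the p150DN libraries. Cbx1 rose in p150DN embryos, with a log2 fold change of 1.70 ± 0.24 (standard error; adjusted p = 0.0014), or 3.7-fold in mean FPKM. Blastocysts were higher than EGFP 8-cell embryos by 2.84 ± 0.13 (adjusted p = 1.64e-05), or 7.98-fold. Log2 fold changes were computed on log2(FPKM + 1), so those of low genes are understated, and p-values are limma's, adjusted over all tested genes. Because the labels do not say that replicates came from separate cultures or litters, these p-values measure the spread between libraries, which may be technical. In bulk RNA, fewer cells of a type and less RNA per cell cannot be told apart, and FPKM does not show a change in total RNA.

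A second transcript overlaps Cbx1. The transcribed pseudogene Gm11517 (chromosome 11, 96795332 to 96798156) lies inside the Cbx1 gene and went the other way. Gm11517 was at 636, 824 and 472 FPKM in p150DN embryos, 148 and 196 FPKM in blastocysts and 1180, 833 and 993 FPKM in EGFP 8-cell embryos. It was lower in p150DN embryos (log2 fold change -0.66 ± 0.21, limma adjusted p = 0.038) and in blastocysts (-2.54 ± 0.18, adjusted p = 5.18e-05), both against EGFP 8-cell embryos. Its ratio to Cbx1 in FPKM was 13.7 to 46.6 in p150DN embryos, 2.57 and 3.02 in blastocysts and 110 to 161 in EGFP 8-cell embryos. Among p150DN libraries, replicate 2 had the highest Gm11517 and the lowest Cbx1 value, and replicate 3 the lowest Gm11517 and the highest Cbx1 value. In blastocysts, replicate 2 was the higher for both. The strand setting of the counting is not given, and how fragments in the shared stretch were divided is uncertain, so the Cbx1 level carries that limit. Its part in the Cbx1 differences was not tested.

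Cbx3, which encodes HP1 gamma (chromosome 6, 51470154 to 51483704), went down. It stood at 67.5, 71.1 and 64.8 FPKM in p150DN embryos, 56.0 and 61.2 FPKM in blastocysts and 99.8, 102 and 93.0 FPKM in EGFP 8-cell embryos. Each p150DN and blastocyst library was below each EGFP 8-cell library. The log2 fold change was -0.53 ± 0.11 for p150DN (limma adjusted p = 0.0070) and -0.74 ± 0.10 for blastocysts (adjusted p = 0.00077). Cbx3 passed in all 14 alternatives of the p150DN comparison and all 12 of the stage comparison, and after median-of-ratios scaling the p150DN value was -0.82. RefSeq lists 6 pseudogene copies of Cbx3, none of them in the table, so fragments that match a copy are uncertain. Hnrnpa2b1, whose start lies 105 bases away in the opposite direction, did not pass in p150DN embryos (log2 fold change 0.08, adjusted p = 0.59) or in blastocysts (-0.17, adjusted p = 0.18).

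Cbx5, which encodes HP1 alpha (chromosome 15, 103191546 to 103239904), was at 31.4, 43.0 and 37.4 FPKM in p150DN embryos, 36.5 and 37.1 FPKM in blastocysts and 27.3, 28.0 and 25.1 FPKM in EGFP 8-cell embryos. All p150DN and blastocyst libraries lay above the EGFP 8-cell libraries, by a smaller step than for Cbx1. The log2 fold change was 0.45 ± 0.15 for p150DN (limma adjusted p = 0.042) and 0.44 ± 0.11 for blastocysts (adjusted p = 0.011). The p150DN call was near the threshold and was lost in 9 of 14 alternatives. After median-of-ratios scaling Cbx5 was at 0.17 (adjusted p = 0.42) for p150DN and 0.22 (adjusted p = 0.12) for blastocysts, both against EGFP 8-cell embryos. Without p150DN replicate 2 or 3, or EGFP 8-cell replicate 1, 2 or 3, its adjusted p was 0.091, 0.11, 0.11, 0.074 and 0.12, and with p150DN replicates 2 and 3 both left out its fold change was 0.22. For blastocysts the call was lost without blastocyst replicate 2 (adjusted p = 0.058). Hnrnpa1, which starts 38 bases away on the other strand, was lower in p150DN embryos (-0.38, adjusted p = 0.030) and in blastocysts (-0.33, adjusted p = 0.018).

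Because Cbx1 and Cbx3 moved in opposite directions, the make-up of the HP1 transcripts differed more than their sum. The 3 genes summed to 133 ± 2.74 FPKM in p150DN embryos (SD, n = 3), 157 ± 9.12 FPKM in blastocysts (n = 2) and 133 ± 6.10 FPKM in EGFP 8-cell embryos (n = 3). Cbx1 made up 21.2% ± 6.76 of the sum in p150DN embryos, 39.0% ± 0.919 in blastocysts and 5.79% ± 0.523 in EGFP 8-cell embryos. Cbx3 made up 50.9% ± 3.31 in p150DN embryos, 37.5% ± 0.212 in blastocysts and 74.0% ± 0.289 in EGFP 8-cell embryos. The Cbx3 share was thus the largest in p150DN and EGFP 8-cell embryos, and in blastocysts it was close to the Cbx1 share. The Cbx5 share was 27.9% ± 4.42 in p150DN embryos, 23.5% ± 1.13 in blastocysts and 20.2% ± 0.231 in EGFP 8-cell embryos. Among p150DN libraries, replicate 2 had the lowest Cbx1 share, 13.4%, against 25.0% and 25.2%, and the highest Cbx5 share, 32.6%. These shares are described and not tested. They carry the limits of the levels they rest on, the stretch that Cbx1 shares with Gm11517 and the pseudogene copies of Cbx3. The ratio of Gm11517 to Cbx1 was largest in EGFP 8-cell embryos, where the Cbx1 share was smallest.

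**Figure D2:**
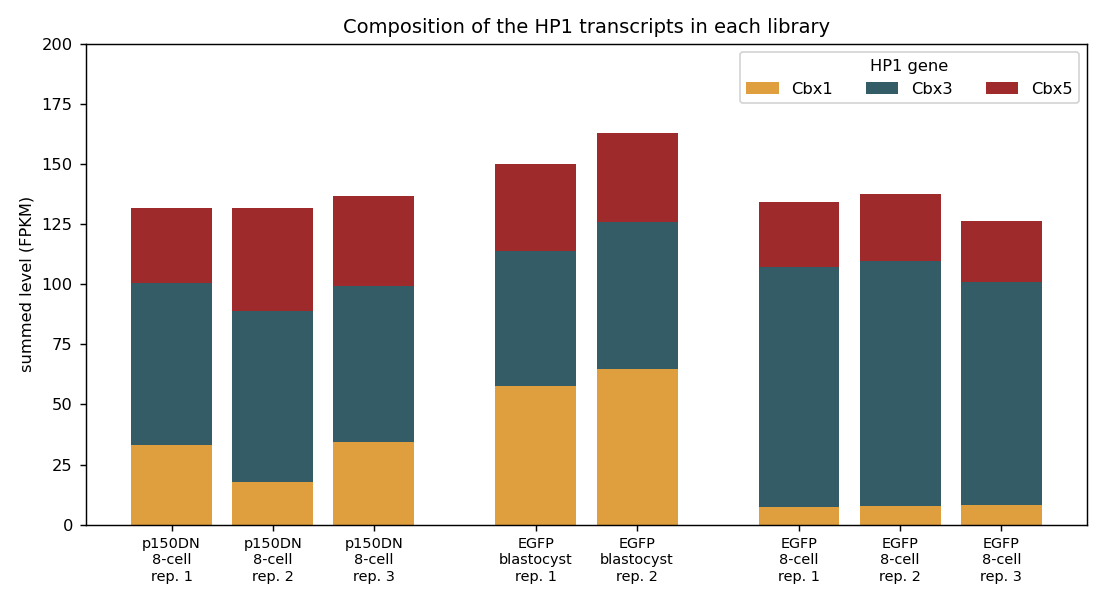
Summed FPKM of the HP1 genes in each library (vertical axis from 0), with the part of Cbx1, Cbx3 and Cbx5 stacked from the bottom. The Cbx1 part was 13.4% to 25.2% of the sum in p150DN 8-cell embryos, 38.4% and 39.7% in EGFP blastocysts and 5.46% to 6.39% in EGFP 8-cell embryos. The Cbx1 level is uncertain where the gene overlaps Gm11517.

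Among the methyltransferase genes, Ehmt2 (G9a; chromosome 17, 34898463 to 34914073) had the highest level. It was at 32.8, 44.9 and 32.3 FPKM in p150DN embryos, 40.4 and 40.5 FPKM in blastocysts and 50.6, 52.9 and 56.3 FPKM in EGFP 8-cell embryos. Both other groups lay wholly below the EGFP 8-cell libraries. Ehmt2 fell in p150DN embryos (log2 fold change -0.54 ± 0.15, limma adjusted p = 0.024) and in blastocysts (-0.39 ± 0.11, adjusted p = 0.015), and median-of-ratios scaling gave -0.83 and -0.61. The p150DN call was lost without p150DN replicate 1 or 3 (adjusted p = 0.063 and 0.088) and without EGFP 8-cell replicate 1, 2 or 3 (0.061, 0.060 and 0.075). The blastocyst call was lost without blastocyst replicate 1 or 2 (adjusted p = 0.060 for each) and with all 8 libraries in 1 fit (0.054).

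Ehmt1 (GLP; chromosome 2, 24790769 to 24919643), the partner of Ehmt2, was at 12.6, 18.5 and 19.8 FPKM in p150DN embryos, 13.3 and 13.7 FPKM in blastocysts and 23.4, 23.4 and 22.6 FPKM in EGFP 8-cell embryos. Here too the EGFP 8-cell libraries were the highest, with no overlap. Ehmt1 fell in blastocysts, with a log2 fold change of -0.74 ± 0.12 (limma adjusted p = 0.0013), in all 12 alternatives. Its p150DN difference of -0.45 ± 0.18 did not pass (adjusted p = 0.083, 95% interval -0.86 to -0.04 before adjustment). It did pass under median-of-ratios scaling (-0.73, adjusted p = 0.0081) and under quantile normalization (0.041). With p150DN replicates 2 and 3 both left out, only replicate 1 remained, the lowest p150DN library for Ehmt1. Over all alternatives the Ehmt1 value ran from -0.83 to -0.26 for p150DN. The ratio of Ehmt2 to Ehmt1 in FPKM was 2.22 ± 0.52 in p150DN embryos, 3.00 ± 0.0566 in blastocysts and 2.30 ± 0.169 in EGFP 8-cell embryos.

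Setdb2 (chromosome 14, 59402009 to 59440880), which encodes a SET domain protein related to Setdb1, was at 11.0, 12.5 and 12.4 FPKM in p150DN embryos, 8.22 and 7.91 FPKM in blastocysts and 17.9, 25.7 and 14.7 FPKM in EGFP 8-cell embryos. The groups did not overlap, and EGFP 8-cell replicate 2 stood well above its group. Setdb2 fell in blastocysts, with a log2 fold change of -1.14 ± 0.23 (limma adjusted p = 0.0036), in all 12 alternatives. In p150DN embryos it fell as well (-0.62 ± 0.20, adjusted p = 0.042), a call that was lost in 7 of 14 alternatives. Without EGFP 8-cell replicate 2 the p150DN value was -0.41 (adjusted p = 0.12), and without EGFP 8-cell replicate 1 or p150DN replicate 1, 2 or 3 the adjusted p was 0.091, 0.094, 0.061 and 0.092. The annotated read-through gene Gm45935 covers the whole of Setdb2, the Setdb2 level was 1.15 to 1.26 times its level in each library, and the 2 cannot be told apart here. Gm45935 gave -0.56 for p150DN (adjusted p = 0.066) and -1.04 for blastocysts (adjusted p = 0.0057).

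Setdb1 (chromosome 3, 95323525 to 95357202), the partner of Trim28 in silencing retroviral elements, overlapped between groups. It was at 14, 19.0 and 18.1 FPKM in p150DN embryos, 19.0 and 21.6 FPKM in blastocysts and 19.1, 17.5 and 18.7 FPKM in EGFP 8-cell embryos. Neither the p150DN difference (log2 fold change -0.12, 95% interval -0.47 to 0.23, limma adjusted p = 0.58) nor the stage difference (0.13, -0.17 to 0.43, adjusted p = 0.39) passed. Setdb1 shares 75 bases with its neighbour Cers2. The FPKM ratio of Setdb1 to Setdb2 was 1.42 ± 0.125 in p150DN embryos, 2.53 ± 0.304 in blastocysts and 1.01 ± 0.298 in EGFP 8-cell embryos.

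The Suv39h pair did not pass in any comparison. Suv39h1 (chromosome X, 8061171 to 8074760) was at 5.21, 10.5 and 8.89 FPKM in p150DN embryos, 8.79 and 8.53 FPKM in blastocysts and 8.33, 8.31 and 9.93 FPKM in EGFP 8-cell embryos. The p150DN libraries held both the lowest and the highest Suv39h1 value, and the log2 fold change was -0.14 (95% interval -0.68 to 0.40, limma adjusted p = 0.67). Between the stages it was -0.02 (-0.38 to 0.33, adjusted p = 0.89). Over the alternatives the Suv39h1 value ran from -0.66 to 0.12 for p150DN and from -0.40 to 0.05 between the stages. Suv39h2 (chromosome 2, 3455815 to 3474986) was at 4.76, 5.31 and 4.24 FPKM in p150DN embryos, 4.99 and 5.92 FPKM in blastocysts and 3.97, 4.41 and 3.2 FPKM in EGFP 8-cell embryos. Its differences were 0.25 for p150DN (-0.17 to 0.67, adjusted p = 0.32), where the groups overlapped, and 0.41 for blastocysts (-0.02 to 0.85, adjusted p = 0.082), where they did not. Over the alternatives the Suv39h2 value ran from -0.14 to 0.33 for p150DN and from -0.03 to 0.52 for blastocysts, so its sign depended on the processing. Suv39h2 shares 18397 bases with Dclre1c, a DNA repair gene, so its level is uncertain in the same way as that of Cbx1. The 6 methyltransferase genes together summed to 95.6 ± 15.3 FPKM in p150DN embryos, 96.5 ± 2.47 FPKM in blastocysts and 127 ± 4.65 FPKM in EGFP 8-cell embryos. Ehmt1 and Ehmt2 made up 56.1% of this sum in p150DN embryos, 56.0% in blastocysts and 60.2% in EGFP 8-cell embryos.

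Trim28 (chromosome 7, 13024152 to 13031032), the KRAB co-repressor, had overlapping levels in all groups. It was at 249, 239 and 232 FPKM in p150DN embryos, 227 and 246 FPKM in blastocysts and 239, 206 and 251 FPKM in EGFP 8-cell embryos. The log2 fold change was 0.05 for p150DN (95% interval -0.21 to 0.31, limma adjusted p = 0.76) and 0.03 for blastocysts (-0.24 to 0.31, adjusted p = 0.82). Trim28 shares 438 bases with Gm31649, a gene not analysed here.

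In p150DN against EGFP 8-cell embryos, 5 of the 10 genes were called, where 34.3% of the 11730 tested genes were (limma, Benjamini-Hochberg adjusted p below 0.05). The 2 that rose were Cbx1 and Cbx5, against a background of 24.6% higher, and the 3 that fell were Setdb2, Ehmt2 and Cbx3, against a background of 9.68% lower. Of these calls, Cbx1 and Cbx3 held in all 14 alternatives. Groups did not overlap for 6 of the 10, where 49.8% of tested genes did not overlap. The median log2 fold change of the 10 genes was -0.13, beside 0.19 over all tested genes. The median of all genes was -0.06 once scaled by median of ratios and -0.03 once quantile normalized, and the share of calls that were higher was 43.9% and 49.3%, against 71.8% as deposited. The median of the 10 genes was computed as deposited only, so it cannot be set beside these rescaled medians. Under both scalings 1 of the 10 genes was higher and 4 were lower. Of the 11730 tested genes, 1753 were higher and 2239 lower under median-of-ratios scaling, and 1779 higher and 1833 lower under quantile normalization.

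In blastocysts against EGFP 8-cell embryos, 6 of the 10 genes were called, where 67.5% of 12199 tested genes were. Cbx1 and Cbx5 were higher, against a background of 42.6% higher, and Setdb2, Ehmt1, Ehmt2 and Cbx3 were lower, against a background of 24.9% lower. The groups did not overlap for 7 of the 10, beside 79.6% of all tested genes, so neither share stands far from the background. Their median log2 fold change was 0.00, against 0.28 over all tested genes. That median over all genes was 0.09 under median-of-ratios scaling and 0.03 once quantile normalized, and 53.3% and 51.0% of calls were then higher, against 63.1% as deposited. Here too the median of the 10 genes was computed as deposited only. The p150DN and stage comparisons share their EGFP 8-cell libraries, so the values of one are not independent of those of the other.

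**Figure D3:**
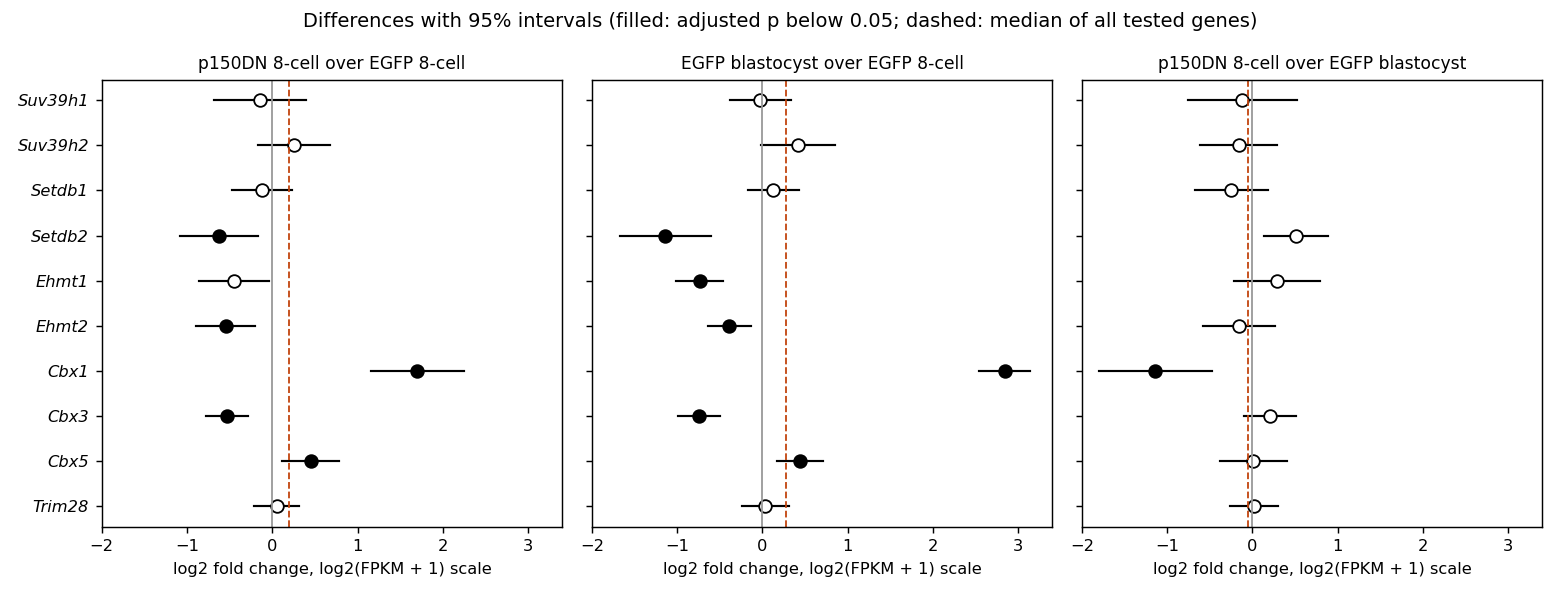
Log2 fold change of the 10 genes on the log2(FPKM + 1) scale with 95% intervals, for p150DN 8-cell over EGFP 8-cell embryos, EGFP blastocysts over EGFP 8-cell embryos, and p150DN 8-cell embryos over EGFP blastocysts; filled points passed at an adjusted p below 0.05 and the dashed line is the median of all tested genes. Cbx1 stood at 1.70, 2.84 and -1.14 in the 3 panels, and Trim28 at 0.05, 0.03 and 0.02.

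The p150DN 8-cell embryos were also set against blastocysts directly, which tests whether their levels differ and in which construct and stage differ at once. Cbx1 was lower in p150DN embryos (log2 fold change -1.14 ± 0.28, limma adjusted p = 0.028). This call was lost without blastocyst replicate 1 (adjusted p = 0.14), without blastocyst replicate 2 (0.18) and with no filter on low values (0.070). It was the only 1 of the 10 called, where 26.1% of 12648 tested genes were called and 14.2% were called lower. None was called higher in limma, where 11.9% of tested genes were, and 1, Setdb2, had an unadjusted p below 0.05 in that direction (0.51 ± 0.16, adjusted p = 0.053). Setdb2 passed with the filter at 5 FPKM (adjusted p = 0.044), under quantile normalization (0.035) and without p150DN replicate 1 (0.044). Groups did not overlap for 3 of the 10, Setdb2, Cbx1 and Cbx3, beside 61% of all tested genes. For Cbx5 the difference was 0.01 with a 95% interval of -0.38 to 0.40, for Cbx3 0.21 (-0.10 to 0.51), for Ehmt1 0.29 (-0.22 to 0.79) and for Ehmt2 -0.16 (-0.58 to 0.26), none of which passed. Leaving out 1 blastocyst library left 116 (without replicate 1) or 79 (without replicate 2) of all genes called, against 3301, so this comparison rests on both blastocyst libraries. In mean FPKM the p150DN embryos lay between blastocysts and EGFP 8-cell embryos for 5 of the 10 genes, Suv39h2, Setdb2, Ehmt1, Cbx1 and Cbx3. This order of means was not tested, and the share of all genes with such an order was not computed. Of the 5, Suv39h2 passed in no comparison, and Ehmt1 values in p150DN embryos overlapped those of blastocysts.

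The other genes of the pathway were taken from a list of 38, of which 35 were tested; Kdm4d, Prdm16 and Mecom stayed below the filter. In p150DN embryos 6 rose and 6 fell, in blastocysts 9 rose and 13 fell, both against EGFP 8-cell embryos, and in p150DN embryos against blastocysts 6 were higher and 2 lower. In either direction that was 12 of 35 beside 34.3% of all tested genes for p150DN, 22 of 35 beside 67.5% for blastocysts and 8 of 35 beside 26.1% for p150DN embryos against blastocysts, shares near those of all genes. The median log2 fold change of the list was 0.05 for p150DN over EGFP 8-cell embryos (0.19 over all tested genes), 0.04 for blastocysts over EGFP 8-cell embryos (0.28) and 0.02 for p150DN embryos over blastocysts (-0.05).

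Among the 10 H3K9 demethylase genes tested, 1 rose and 1 fell in p150DN embryos, and 3 rose and 3 fell in blastocysts, beside 34.3% of all tested genes called in p150DN embryos and 67.5% in blastocysts. Phf2, whose JmjC protein acts on H3K9me2, was at 2.39 ± 0.871 FPKM in p150DN embryos (SD, n = 3), 3.66 ± 0.223 FPKM in blastocysts (n = 2) and 0.468 ± 0.0952 FPKM in EGFP 8-cell embryos (n = 3). It rose by a log2 fold change of 1.18 ± 0.24 in p150DN embryos (limma adjusted p = 0.0063) and 1.67 ± 0.16 in blastocysts (adjusted p = 0.00015). Kdm4c, a demethylase of H3K9me3, went down and stood at 21.8 ± 6.76 FPKM in p150DN embryos, 7.03 ± 0.244 FPKM in blastocysts and 33.9 ± 3.26 FPKM in EGFP 8-cell embryos. The log2 fold change of Kdm4c was -0.65 for p150DN (adjusted p = 0.043) and -2.11 for blastocysts (adjusted p = 3.71e-05), and p150DN embryos were above blastocysts by 1.46 (adjusted p = 0.011). Its relative Kdm4a rose in blastocysts (0.75, adjusted p = 0.0038). Kdm7a, which acts on H3K9me2 and H3K27me2, fell in blastocysts (-1.41, adjusted p = 0.0044) and was higher in p150DN embryos than in blastocysts (1.13, adjusted p = 0.0062).

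Of 9 genes of methyltransferase partners and the HUSH silencing complex, 2 rose and 2 fell in p150DN embryos, and 2 rose and 4 fell in blastocysts, where 34.3% (p150DN) and 67.5% (blastocysts) of all tested genes were called. Zfp644, whose zinc finger protein binds the G9a and GLP pair, changed most. Its level was 29.8 ± 11.2 FPKM in p150DN embryos, 12.2 ± 0.268 FPKM in blastocysts and 113 ± 26.2 FPKM in EGFP 8-cell embryos. The Zfp644 log2 fold change was -1.93 ± 0.25 for p150DN (limma adjusted p = 0.0010) and -3.09 ± 0.19 for blastocysts (adjusted p = 3.24e-05). It was higher in p150DN embryos than in blastocysts (1.17, adjusted p = 0.025). Wiz, which encodes another zinc finger partner of the same pair, rose in blastocysts (0.59, adjusted p = 0.015) and did not pass in p150DN embryos (0.28, adjusted p = 0.23). Mphosph8, the H3K9me3 reader of HUSH, rose in p150DN embryos (0.61, adjusted p = 0.016) and in blastocysts (1.55, adjusted p = 0.00010), and was lower in p150DN embryos than in blastocysts (-0.93, adjusted p = 0.011). Pphln1, which encodes the HUSH subunit periphilin, fell in p150DN embryos (-0.48, adjusted p = 0.012) and in blastocysts (-0.63, adjusted p = 0.0014). Atf7ip, the binding partner of Setdb1, rose in p150DN embryos (0.94, adjusted p = 0.047), near the threshold and with overlapping groups. Resf1, a gene of retroviral silencing with Setdb1, fell in blastocysts (-1.17, adjusted p = 0.00061) and was higher in p150DN embryos than in blastocysts (0.70, adjusted p = 0.034).

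Of 12 further heterochromatin genes, 2 rose and 3 fell in p150DN embryos, and 3 rose and 6 fell in blastocysts, against 34.3% of all tested genes called for p150DN and 67.5% for blastocysts. Kmt5c, the H4K20 methyltransferase that binds HP1, was at 5.57 ± 0.813 FPKM in p150DN embryos, 7.80 ± 0.343 FPKM in blastocysts and 1.40 ± 0.441 FPKM in EGFP 8-cell embryos. It rose by a log2 fold change of 1.46 ± 0.21 in p150DN embryos (limma adjusted p = 0.0015) and 1.89 ± 0.20 in blastocysts (adjusted p = 0.00023). Uhrf1, which encodes a reader of H3K9 methylation and hemimethylated DNA, rose in p150DN embryos (0.97 ± 0.16, adjusted p = 0.0025) and in blastocysts (2.22 ± 0.15, adjusted p = 4.68e-05). Uhrf1 was lower in p150DN embryos than in blastocysts (-1.25, adjusted p = 0.0073). Smchd1, a silencing gene of the inactive X, fell in p150DN embryos (-1.45, adjusted p = 0.0032) and in blastocysts (-1.81, adjusted p = 0.00043). Chd4, the remodelling ATPase of the NuRD complex, fell in p150DN embryos (-0.70, adjusted p = 0.0042) and in blastocysts (-0.69, adjusted p = 0.0064). Adnp, an HP1-binding protein gene, fell in p150DN embryos (-0.67, adjusted p = 0.033) and in blastocysts (-1.25, adjusted p = 0.00018). Of the 3 KRAB zinc finger genes, whose proteins recruit Trim28, Zfp809 rose in p150DN embryos (1.11 ± 0.25, adjusted p = 0.010) and did not pass in blastocysts (0.43, adjusted p = 0.17). Prdm2, a PRDM methyltransferase gene, rose in blastocysts (0.50, adjusted p = 0.0090).

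**Figure D4:**
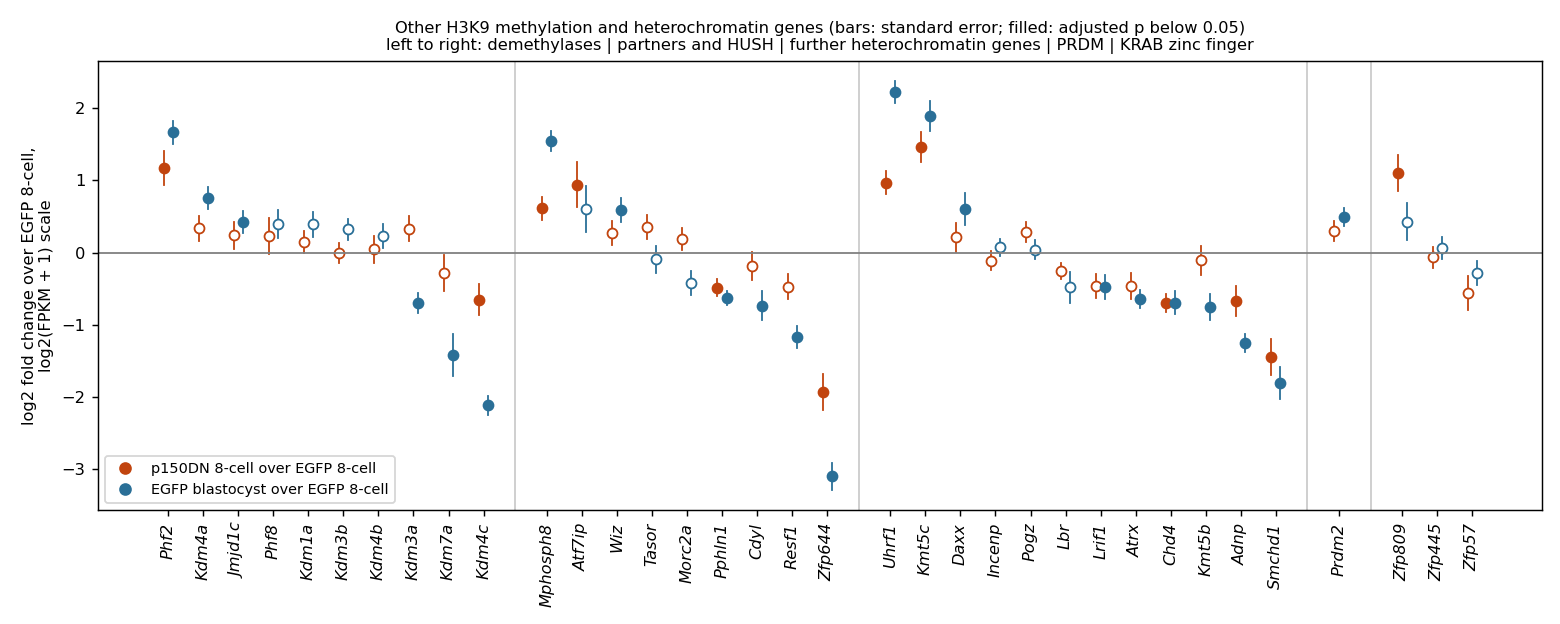
Log2 fold change over EGFP 8-cell embryos, on the log2(FPKM + 1) scale with standard errors, of the 35 tested pathway genes in p150DN 8-cell embryos and in EGFP blastocysts, which share the same EGFP 8-cell libraries; filled points passed at an adjusted p below 0.05. Zfp644 stood lowest, at -1.93 in p150DN embryos and -3.09 in blastocysts, and the highest blastocyst value was that of Uhrf1, 2.22.

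For each of the 10 genes the gene with the most similar profile over the 8 libraries was sought among at least 7079 genes, as the smallest root mean square difference of centred log2(FPKM + 1) values. Slc25a39, a mitochondrial carrier gene, lay nearest to Cbx1 with a difference of 0.138, and averaged 44.9 FPKM in p150DN embryos, 82.0 FPKM in blastocysts and 12.9 FPKM in EGFP 8-cell embryos. The nearest profile to Cbx3 was that of Strn (0.0502), and to Cbx5 that of Zfp532 (0.0701). Among the methyltransferases these were Slbp for Ehmt1 (0.0773), Ddx52 for Ehmt2 (0.0795), Tpm3 for Setdb1 (0.0713), Fchsd2 for Setdb2 (0.0677), Ssr4 for Suv39h1 (0.136) and Sav1 for Suv39h2 (0.0538). Adrm1 lay nearest to Trim28 (0.0426). None of the 10 genes had another of the 10 as its nearest profile. This says little on whether the 10 moved together, because the others are few among at least 7079 genes.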

How the data were processed

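RNA-seq libraries of p150DN 8-cell embryos, EGFP blastocysts and EGFP 8-cell embryos come, per the labels, from total RNA and a stranded SMART-seq kit. The authors deposited FPKM values for 25220 gene symbols, per the file headers. Per the submitters' processing notes, HISAT2, Bowtie2, featureCounts, SAMtools, Trim Galore and the build mm10 were used; the sources used here do not give versions, annotation or strand setting. The 8-cell columns that name no construct were read as EGFP 8-cell libraries, whose descriptions carry the same stage and number. No value column was left unused, and 65 of the 73 samples were not analysed here. Fragments were recovered from the steps of low values, within a tolerance of 0.02.

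limma 3.58.1 in R 4.3.3 (trended eBayes, two-sided) was fitted on log2(FPKM + 1) to the libraries compared, for genes that reached 1 FPKM in 3 libraries (p150DN against EGFP 8-cell) or 2 libraries (comparisons with blastocysts). The deposited values are FPKM, and no count test was run on the recovered fragments. Benjamini-Hochberg adjusted p below 0.05 over all tested genes was called. The procedure was tested on simulated data. Members and lists were chosen with earlier results of these data known. Named were all 10 genes, Chaf1a and up to 2 called genes of each pathway group, direction and comparison with the largest change; overlapping and neighbouring genes were named for their position. Alternatives were other pseudocounts, filters and scalings, 1 fit of all libraries, a replicate block and left-out replicates. Coordinates are those of RefSeq on GRCm38.p6, the assembly of mm10, to which 98.8% of symbols matched.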

Additional observations from a re-analysis of the deposited data

How the results depend on the processing

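No value changed sign among those called. In the p150DN against EGFP 8-cell comparison, 2 genes were called higher, and 1 with no filter, under median-of-ratios scaling, under quantile normalization and with p150DN replicates 2 and 3 both left out, where 2483 of all genes were called against 4023. Leaving out 1 replicate gave 1 to 2 genes higher, 1 to 2 lower, 8 to 14 pathway genes and 2538 (without EGFP 8-cell replicate 1) to 4066 of all genes. In blastocysts against EGFP 8-cell embryos, 1 gene was higher under median-of-ratios scaling and with the replicate block, and leaving out 1 replicate gave 1 to 2 higher, 3 to 4 lower, 15 to 25 pathway genes and 6149 to 8203 of all genes. In p150DN embryos against blastocysts, 0 genes were lower and 1555 of all genes were called with no filter; 1 gene was higher with the filter at 5 FPKM and under quantile normalization; and with p150DN replicates 2 and 3 both left out 1 pathway gene and 1079 of all genes were called. Leaving out 1 replicate there gave 0 to 1 higher, 0 to 1 lower, 0 to 12 pathway genes and 79 to 4152 of all genes, where a lone blastocyst library is assumed to vary like the others. With p150DN replicates 2 and 3 both left out, the lone p150DN library is likewise assumed to vary like the others. Apart from fewer samples or other genes tested, the cause of these changes in the calls was not tested. Samples with the same replicate number deviated together with r of 0.0616, 0.0986 and 0.0346 in p150DN against EGFP 8-cell embryos. The r was -0.0318 and -0.0243 in blastocysts against EGFP 8-cell embryos, and -0.0651 and -0.0606 in p150DN embryos against blastocysts. With 2 blastocyst libraries, deviations from their mean mirror each other, so those values say little on pairing. The values against EGFP 8-cell embryos are weak and can neither establish nor exclude a pairing by number. There, p150DN replicate 1 correlated best with EGFP 8-cell replicate 3 (0.0776). With the replicate block 4081, 7861 and 3072 of all genes were called in the 3 comparisons, and 2, 1 and 0 of the 10 genes were higher and 3, 3 and 1 lower; Ehmt2 (adjusted p = 0.066) and Cbx5 (0.052) lost their call in blastocysts. With 2 or 3 libraries a group, small differences may be missed.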
